A study of Mus musculus with 24 samples.

Results

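The genes described here encode the proteins of the mitochondrial ribosome under the names Mrpl (large subunit) and Mrps (small subunit). Members were the rows of the count table whose symbol is Mrpl or Mrps followed by a number and at most 1 letter, with 60 or more reads summed over the 24 libraries. Of 55401 genes, 78 carried such a name and 77 had enough reads; Mrpl53 had 0 reads and was left out. The rule uses only names and read totals, but the members were chosen with earlier results of these data known. Of the 77 members, 50 belong to the large subunit, 26 to the small subunit, and Mrps36 to neither, since its protein is known as a subunit of the 2-oxoglutarate dehydrogenase complex. The cells were bone marrow-derived macrophages of wild-type C57BL/6J mice, grown in medium conditioned by L929 cells and replated on day 6. The 6 groups, of 4 libraries each, were sequenced from the 3' ends of their mRNA: untreated cells, cells given 30 µM S14 and cells given 100 ng/mL LPS, each harvested at 3 h and at 18 h. S14 is sphingomyelin d18:1/14:0, a membrane lipid, and LPS is the bacterial outer membrane component sensed by Toll-like receptor 4.

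Mitochondria keep a small genome that encodes core subunits of the respiratory chain, and a dedicated ribosome inside the organelle translates these mRNAs. Its ribosomal RNAs come from mitochondrial DNA, whereas every one of its proteins is encoded in the nucleus, made in the cytosol and imported. Some of these proteins descend from bacterial ribosomal proteins and others have no bacterial counterpart. Macrophages stimulated through Toll-like receptors are known to change their respiration and mitochondrial metabolism.

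Members covered a range of levels that left most of them measurable in every library. Sequencing of 3' ends gives about 1 read per transcript end, so levels of different genes can be compared without scaling to length. In CPM, the reads of a gene scaled to a common library size, Mrps15 had the highest mean over the 24 libraries (145), followed by Mrpl52 (144) and Mrpl18 (124). The lowest of the 74 members that could be tested was Mrpl22 (9.73). The other 3 members had too few reads for a test: Mrpl23 with 85, Mrps36 with 97 and Mrps18b with 61 reads in all 24 libraries. Near-identical copies elsewhere in the genome can take reads from a member: the pseudogene Mrpl23-ps1 held 957 reads and Mrps36-ps1 held 489, more than their parent genes. The members lie on 17 chromosomes, 46 of them on the plus strand.

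Library totals ran from 3334182 to 6350251 reads. A single library differed from all others, the untreated 18 h replicate 4: the standard deviation of its log2 deviations from the group mean was 0.518, against at most 0.379 in any other library. It held 0.0134% of spike-in reads, against 0.0178 to 0.0595% elsewhere, so counts of members at 18 h are given with and without it, and calls of named genes that were lost without it are named. All 8 macrophage markers checked (Adgre1, Cd68, Csf1r, Itgam, Lyz2, Mertk, Fcgr1 and Mrc1) had reads in all 24 libraries. All marker levels are CPM of the raw library total, without TMM scaling. The summed level of these 8 was 35176 to 49412 CPM in untreated cells at 18 h, 32566 to 33992 with S14 and 13356 to 21049 with LPS. At 3 h the sums were 22092 to 23737, 20184 to 22024 and 13155 to 14510.1 CPM. TMM scaling divides by factors of 1.1756 to 1.182 in untreated cells at 3 h and 0.755 to 0.773 with LPS at 3 h. The gap between these 2 groups is therefore narrower on that scale, and whether they overlap there was not taken. Lyz2 held most of these reads, 2036353 against 236226 for the next marker, Csf1r, so the sum mainly follows Lyz2. The erythroid markers Hbb-bs and Hba-a1 had 0 reads. The 4 fibroblast markers summed to 8.96 to 15.3 CPM with LPS at 18 h and to at most 2.06 CPM in any library of the other groups; Dcn held 266 of their reads, Col1a1 5, Col1a2 6 and Pdgfra 0. The 5 T cell markers summed to 9.94 to 19.0 CPM in untreated cells at 18 h and 0.785 to 3.90 with LPS; Cd4 held 680 of their reads, Cd3d 13, Cd3e 3, Cd8a 15 and Cd3g 0. Whether other cells have a part in the results was not tested. In bulk RNA, fewer cells and less RNA per cell cannot be told apart, and every difference below is relative to the typical gene of the library, as TMM scaling sets it. Scaling to the spike-in reads instead moved the median of all 11717 tested genes to -0.98 (log2) for S14 at 18 h and -0.68 for LPS at 18 h, and without replicate 4 to -0.49 and -0.19. Nothing in the labels says which libraries share a mouse, so the p-values measure the spread between these libraries.

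Across the 6 groups most members kept within a narrow range. The ratio of the highest to the lowest group mean had a median of 1.53 over the 74 tested members, from 1.13 to 3.78, against a median of 2.36 over all genes tested. All genes tested include some at lower levels than any tested member, where few reads widen this ratio. It was not taken for genes of like level. Among members the ratio passed 2 for 10 and stayed under 1.3 for 9. Which group was highest varied from gene to gene: LPS at 3 h was highest for 23 members and lowest for 19, and untreated cells at 18 h were lowest for 24. The heat map of all 74 tested members shows a few rows that follow treatment, led by Mrpl52 at the top and Mrps6 at the bottom, and many rows without such a division. Colours saturate at the ends of the scale.

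**Figure D1:**
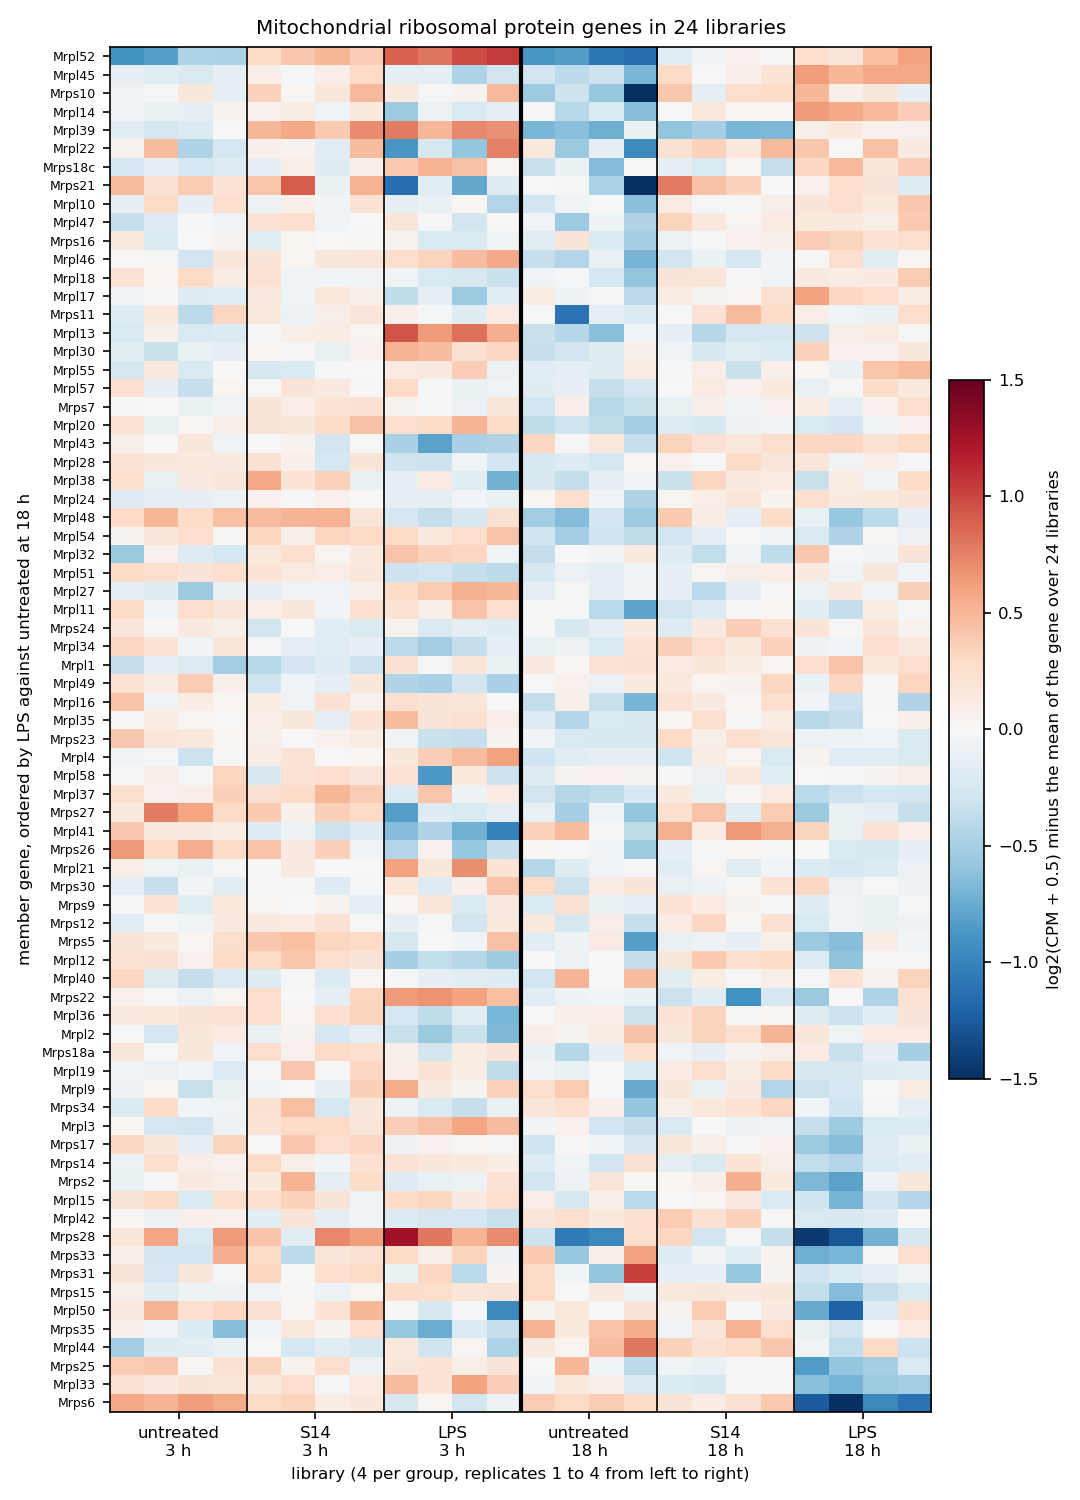
Heat map of 74 tested member genes (rows, ordered by the LPS difference at 18 h) in 24 libraries (columns, 4 per group), coloured by log2(CPM + 0.5) minus the gene's mean over the 24 libraries. Mrpl52 is highest in LPS at 3 h and lowest in untreated cells, and Mrps6 is lowest in LPS at 18 h.

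Summed over all members, the level at 18 h was higher with S14 than in untreated cells on the TMM scale, with no overlap between the libraries, while the member median with spike-in scaling was -0.77 for this comparison. The sum was 3676 to 3859.5 CPM in untreated cells at 3 h, 3871 to 4064 with S14 and 3875 to 4019 with LPS. At 3 h both treated groups thus lay above untreated cells too, narrowly and without overlap. At 18 h the sum was 3241 to 3435 CPM in untreated cells, 3746 to 3889 with S14 and 3422 to 3851 with LPS. As a share of raw reads, with no scaling, the order with LPS was different: members took 0.433 to 0.453% of reads in untreated cells at 3 h and 0.296 to 0.308% with LPS. At 18 h the share was 0.355 to 0.378% in untreated cells, 0.389 to 0.402% with S14 and 0.294 to 0.344% with LPS. A raw share also moves with the reads that other mRNAs take. The proteins of the cytosolic ribosome, which translates nuclear mRNAs, followed another course. Their summed level at 18 h was 28295 to 31044 CPM in untreated cells, 25948 to 26656 with S14 and 16779.9 to 17591 with LPS, and the groups did not overlap. At 3 h the direction with LPS was the opposite, 36747 to 38471 CPM against 30069 to 32879 in untreated cells. The mRNAs encoded in mitochondrial DNA, which the mitochondrial ribosome translates, summed to 13335 to 14641 CPM in untreated cells at 18 h, 9790.3 to 12183 with S14 and 6106 to 9212 with LPS.

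The balance between the subunits was different with LPS at 18 h, and this ratio within a library does not depend on the scaling. The summed level of the 26 small subunit members divided by that of the 50 large subunit members was 0.427 to 0.442 in untreated cells at 18 h, 0.403 to 0.418 with S14 and 0.324 to 0.342 with LPS. None of the 3 groups overlapped. Behind it, the small subunit sum was 971 to 1051 CPM in untreated cells and 852 to 982 with LPS, while the large subunit sum was 2271 to 2396 and 2568 to 2869. At 3 h the ratio was 0.423 to 0.435 in untreated cells, 0.389 to 0.401 with S14 and 0.346 to 0.399 with LPS. Without Mrps6 and Mrpl52, which were chosen after their values were seen, it was 0.386 to 0.401 in untreated cells at 18 h and 0.328 to 0.351 with LPS, still apart, while the S14 libraries (0.380 to 0.397) then overlapped the untreated ones. At 3 h without these 2 genes both treated groups overlapped untreated cells: 0.380 to 0.393 in untreated cells, 0.374 to 0.382 with S14 and 0.350 to 0.397 with LPS. Levels of mRNA say nothing of the amounts of the 2 subunits as assembled particles.

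**Figure D2:**
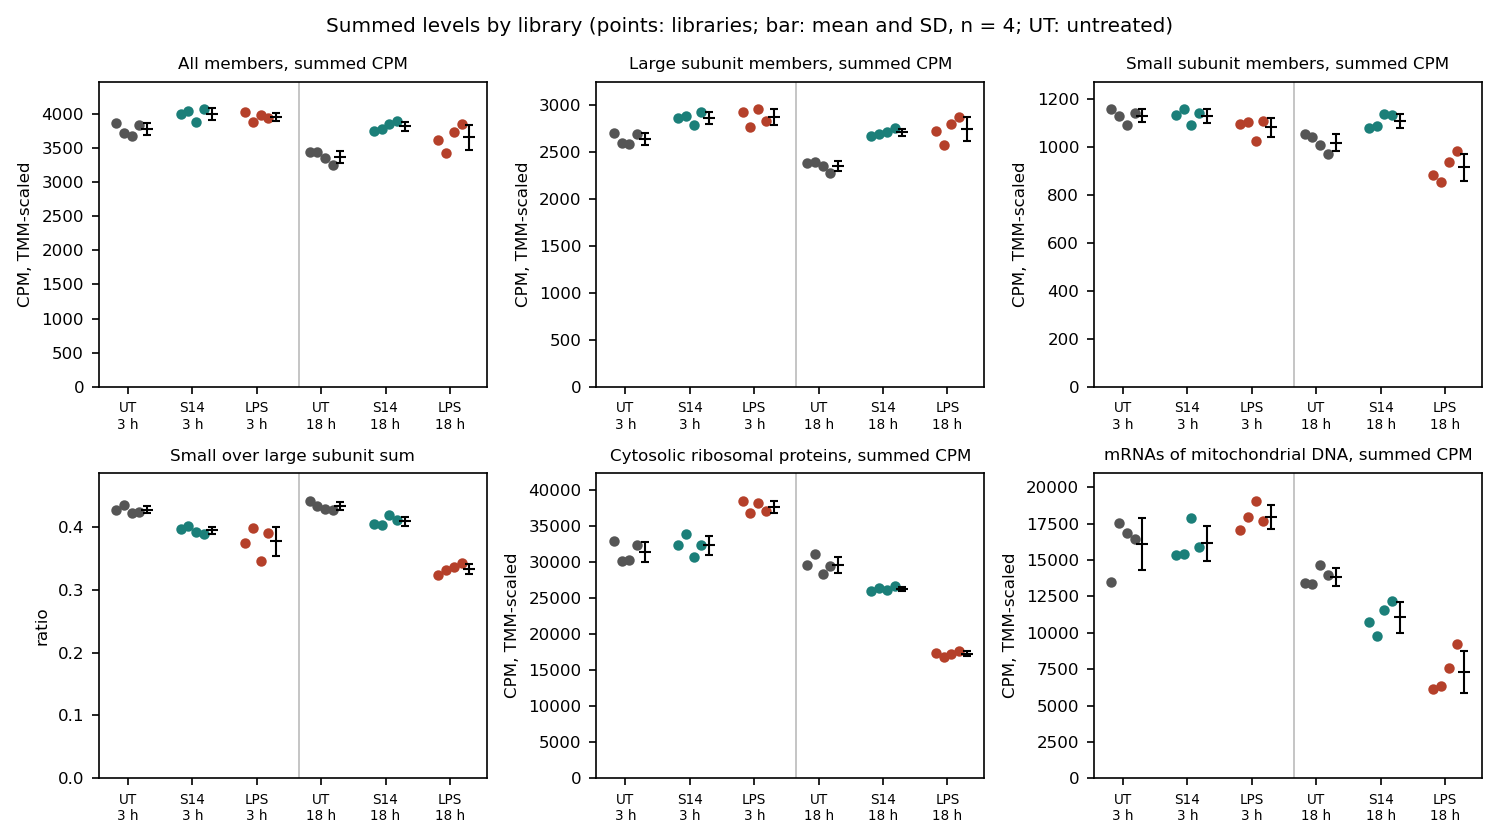
Summed levels in each library (points, 4 per group, with mean and SD) of all members, of the large and small subunit members, of cytosolic ribosomal proteins and of mRNAs of mitochondrial DNA, in TMM-scaled CPM, and the ratio of the small to the large subunit sum. The ratio is lowest in LPS at 18 h (0.324 to 0.342), where the cytosolic ribosomal protein sum is also lowest (16779.9 to 17591 CPM).

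The promoters of 5 members are shown because these genes carry the results below: Mrpl52, Mrpl39 and Mrpl45 rose, Mrps6 and Mrpl12 fell in at least 1 LPS comparison. Each sequence runs 5′ to 3′ on the gene's strand from 250 bases before to 50 bases after the RefSeq start (GRCm38.p6). Capitals mark matches, on either strand, to 4 motifs of factors known to act on nuclear genes for mitochondrial proteins: NRF1 (GCGCA and GCGC with any 1 base between them), the ETS site bound by GABPA (CCGGAAG), an E-box (CACGTG) and YY1 (AANATGGCG). No match of 1 motif overlapped a match of another in these 5 sequences. The promoters lie at chr14:54426659-54426958 (plus strand), chr16:84735195-84735494 (minus strand), chr11:97315466-97315765 (plus strand), chr11:120484387-120484686 (plus strand) and chr16:92058086-92058385 (plus strand).
Mrpl52: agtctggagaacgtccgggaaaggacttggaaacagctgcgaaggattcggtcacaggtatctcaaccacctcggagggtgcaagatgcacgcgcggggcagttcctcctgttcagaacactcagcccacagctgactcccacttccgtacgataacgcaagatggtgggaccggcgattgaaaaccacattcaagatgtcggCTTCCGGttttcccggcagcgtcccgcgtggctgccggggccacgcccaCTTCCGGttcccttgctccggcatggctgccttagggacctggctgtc
Mrpl39: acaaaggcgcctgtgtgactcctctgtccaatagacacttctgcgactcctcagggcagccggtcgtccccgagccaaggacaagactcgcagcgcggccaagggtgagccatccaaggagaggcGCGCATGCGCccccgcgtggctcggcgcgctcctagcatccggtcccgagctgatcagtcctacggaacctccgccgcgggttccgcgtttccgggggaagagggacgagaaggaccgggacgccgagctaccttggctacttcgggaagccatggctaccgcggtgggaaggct
Mrpl45: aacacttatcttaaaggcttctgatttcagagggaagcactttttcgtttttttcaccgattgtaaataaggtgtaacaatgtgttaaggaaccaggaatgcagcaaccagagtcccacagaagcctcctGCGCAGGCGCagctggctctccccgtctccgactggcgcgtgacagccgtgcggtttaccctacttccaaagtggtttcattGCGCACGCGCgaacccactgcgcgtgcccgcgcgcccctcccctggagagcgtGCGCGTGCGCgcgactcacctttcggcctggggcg
Mrpl12: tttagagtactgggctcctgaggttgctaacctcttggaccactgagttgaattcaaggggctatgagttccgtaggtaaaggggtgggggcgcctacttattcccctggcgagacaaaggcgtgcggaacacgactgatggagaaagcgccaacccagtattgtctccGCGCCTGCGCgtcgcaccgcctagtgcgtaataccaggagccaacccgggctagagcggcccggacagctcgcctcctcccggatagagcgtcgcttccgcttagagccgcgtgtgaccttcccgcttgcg
Mrps6: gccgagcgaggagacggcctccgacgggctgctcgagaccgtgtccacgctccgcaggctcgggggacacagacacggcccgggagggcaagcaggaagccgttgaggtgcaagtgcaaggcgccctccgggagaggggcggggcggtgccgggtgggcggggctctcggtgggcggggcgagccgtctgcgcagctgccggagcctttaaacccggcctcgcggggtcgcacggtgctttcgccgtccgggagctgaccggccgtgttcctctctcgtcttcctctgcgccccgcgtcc
Mrpl52 held 2 ETS matches, Mrpl39 and Mrpl12 held 1 NRF1 match each, Mrpl45 held 3 NRF1 matches, and Mrps6 held none of the 4 motifs in this window.

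A RefSeq promoter was found for 68 of the 77 members (74 sequences, since some genes have several starts). An ETS match stood in the promoters of 25 of the 68 members (36.8%), against 9.93% of the 27025 genes with a promoter and 22.0% of the 8804 of them that were tested here. An NRF1 match stood in 13 members (19.1%), against 5.19% and 12.3%. A YY1 match stood in 11 members (16.2%), against 2.76% and 6.55%. E-boxes were no more frequent in members, with 5 (7.35%) against 8.09% and 12.3%. Among the members called higher with LPS at 18 h, 6 of 16 with a promoter held an NRF1 match, against 1 of 7 called lower and 6 of 42 not called. At 3 h the numbers for NRF1 were 3 of 14 higher, 3 of 18 lower and 7 of 33 not called. Other motifs gave other contrasts with LPS. ETS matches stood in 7 of 14 higher, 9 of 18 lower and 8 of 33 not called at 3 h. YY1 matches stood in 0 of 16 higher, 1 of 7 lower and 10 of 42 not called at 18 h. All of these, NRF1 at 18 h included, were picked from counts of several motifs and comparisons. No difference between them was tested. These are counts of letters in a window and say nothing of binding.

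Few members passed the test with S14 at 3 h. Of the 74 tested, 4 were higher than in untreated cells and 1 lower, where 9.05% of all genes were called higher and 6.2% lower (in either direction 6.76% of members and 15.2% of all genes). Fitting only the 2 groups compared gave 7 higher and 4 lower. The median over members was 0.09 (log2) and over all genes -0.03. Mrpl52, a large subunit protein with no bacterial counterpart, stood at 69.7, 72.7, 94.2 and 92.9 CPM in untreated replicates 1 to 4 and at 159, 172, 183 and 167 with S14. All 4 S14 libraries lay above all untreated ones, a 2.07-fold rise (log2 1.05 ± 0.10, adjusted p = 5.8e-11). Mrpl39, another protein of the large subunit specific to mitochondria, went from 56.0, 52.5, 54.4 and 62.8 to 89.4, 93.6, 82.8 and 103 CPM, again with no overlap (log2 0.71 ± 0.11, adjusted p = 4.1e-06). Mrpl3, whose bacterial counterpart lies near the site of peptide bond formation, went from 49.0, 40.3, 39.4 and 45.7 to 55.8, 59.3, 58.8 and 54.6 CPM (log2 0.39 ± 0.12, adjusted p = 0.014), and its call was lost without untreated replicate 2 (0.35, adjusted p = 0.060) or replicate 3 (0.34, adjusted p = 0.067). Mrpl45, which helps attach the ribosome to the inner membrane, rose by 0.28 (adjusted p = 0.043), a call lost without any 1 of 11 libraries (adjusted p up to 0.22 without S14 replicate 4). Mrps6, the counterpart of bacterial protein S6 on the platform of the small subunit, fell from 141, 136, 147 and 141 to 117, 120.2, 103 and 107 CPM (log2 -0.34 ± 0.09, adjusted p = 0.0084). With spike-in scaling 1 member was called higher and 0 lower; Mrpl52 kept its call there (1.16, adjusted p = 0.023).

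With LPS at 3 h members changed in both directions. Of 74, 16 were higher and 18 lower than in untreated cells, against 25.3% and 30.2% of all genes, and the median over members was -0.04 against -0.11 over all genes. In either direction 45.9% of members and 55.5% of all genes were called. Mrpl52 showed the largest rise again, to 239.6, 226, 255 and 269 CPM from the untreated values above, 3.00-fold (log2 1.59 ± 0.10, adjusted p = 1.9e-17). Mrpl13, a counterpart of bacterial L13 that joins the large subunit early in its assembly, stood at 36.3, 44.6, 36.1 and 36.8 CPM in untreated cells and at 81.9, 66.6, 75.5 and 62.3 with LPS (log2 0.90 ± 0.13, adjusted p = 7.6e-08). Untreated replicate 2 was the highest of its group and still lay below all 4 LPS libraries. Mrpl39 reached 108, 89.1, 104 and 102 CPM (log2 0.84 ± 0.11, adjusted p = 2.9e-08). The other members that rose, in order of their change, were Mrpl27, Mrpl3, Mrps22, Mrps18c, Mrpl30, Mrpl4, Mrpl32, Mrpl21, Mrpl46, Mrpl1, Mrps15, Mrpl20 and Mrpl33, from 0.67 down to 0.23 in log2 fold change.

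Among the members that fell at 3 h with LPS, Mrpl41, a large subunit protein specific to mitochondria, changed most. It stood at 40.3, 34.0, 33.2 and 32.7 CPM in untreated cells and at 19.2, 22.0, 18.2 and 14.8 with LPS, without overlap (log2 -0.92 ± 0.17, adjusted p = 8.8e-06). Mrps21, the counterpart of bacterial S21, had 15.1, 12.6, 14.1 and 12.5 CPM in untreated cells and 4.60, 9.47, 6.07 and 9.35 with LPS (log2 -0.88 ± 0.31, adjusted p = 0.014); without LPS replicate 1, its lowest library, the call was lost (-0.72, adjusted p = 0.062). Mrps27, an RNA-binding protein of the small subunit, had 12.2, 18.9, 16.7 and 13.5 CPM and 5.95, 9.47, 9.22 and 9.87 CPM (log2 -0.83 ± 0.22, adjusted p = 0.0014). Mrps6 fell to 80.3, 97.2, 78.2 and 90.4 CPM (log2 -0.71 ± 0.10, adjusted p = 3.2e-08), and Mrpl12, which forms the flexible stalk where translation factors bind and is reported to bind the mitochondrial RNA polymerase, fell from 74.6, 75.7, 67.6 and 78.6 to 45.7, 49.9, 47.8 and 44.4 (log2 -0.66 ± 0.12, adjusted p = 5.1e-06). All 4 LPS libraries lay below all untreated libraries for both genes. The remaining members called lower were Mrps26, Mrpl49, Mrpl43, Mrpl51, Mrpl50, Mrpl36, Mrpl48, Mrpl34, Mrpl2, Mrpl28, Mrpl18, Mrps23 and Mrpl42, from -0.76 to -0.29. The split between higher and lower depended on the scaling: it was 18 and 17 with DESeq2 size factors, and 9 and 0 with spike-in scaling, where the median of all genes was 0.23.

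S14 at 18 h gave a 1-sided set of calls on the TMM scale, which did not hold with spike-in scaling. Of 74 members, 18 were higher than in untreated cells and 0 lower with edgeR, against 12.6% and 11.6% of all genes, and 58 of the 74 had a log2 fold change above 0. In either direction 24.3% of members and 24.3% of all genes were called. Fitting only the 2 groups compared gave 9 higher and 0 lower. The member median was 0.16 and that of all genes -0.02. With spike-in scaling 0 were higher and 43 lower, or 0 and 1 without untreated replicate 4. The member median then was -0.77 against -0.98 over all genes, or -0.32 against -0.49 without that library. Such scaling multiplies a whole library by 1 factor, so it moves members and the typical gene alike. The like distance between them under both scalings follows from this construction and is no further evidence. On the TMM scale without untreated replicate 4, 12 members were higher and 0 lower, and 6 of the 18 kept their call in each of the 24 fits that left out 1 library. The calls lost without untreated replicate 4 were those of Mrpl14, Mrpl16, Mrpl18, Mrpl20, Mrpl47, Mrpl57 and Mrps21, and Mrps28 gained one.

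Mrpl52 led the set: 70.6, 72.1, 60.8 and 58.3 CPM in untreated cells and 116, 126, 136 and 128 with S14, without overlap (log2 0.95 ± 0.10, adjusted p = 1.4e-09); with spike-in scaling the difference was 0.01, adjusted p = 0.99. Mrps10, counterpart of bacterial S10, had 8.52, 10.1, 8.39 and 3.68 CPM in untreated cells and 16.9, 11.5, 15.3 and 15.5 with S14 (log2 0.94 ± 0.22, adjusted p = 0.0013). Its lowest value was in untreated replicate 4, and the groups did not overlap with or without it. Mrps21 had 10.6, 10.4, 7.55 and 1.93 and 18.7, 14.6, 13.7 and 10.8 CPM (log2 0.92 ± 0.29, adjusted p = 0.015), and its call was lost without untreated replicate 4 (0.61, adjusted p = 0.053) or S14 replicate 1 (0.77, adjusted p = 0.074). Mrpl45 rose from 81.3, 75.4, 79.1 and 61.4 to 121, 99.0, 104 and 114 CPM (log2 0.56 ± 0.10, adjusted p = 1.8e-05). The other calls were Mrpl48, Mrps11, Mrpl16, Mrpl47, Mrpl37, Mrpl12, Mrps23, Mrpl35, Mrpl14, Mrpl34, Mrpl57, Mrpl28, Mrpl18 and Mrpl20, from 0.69 down to 0.26. Of the 4 members higher at 3 h, Mrpl52 and Mrpl45 were also higher at 18 h. Mrpl39, which had risen at 3 h, stood at 39.1, 40.5, 37.6 and 58.6 CPM in untreated cells and 41.7, 44.0, 39.0 and 39.3 with S14 (log2 -0.10 ± 0.12, adjusted p = 0.60). Untreated replicate 4 was the highest of these 8 libraries.

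**Figure D3:**
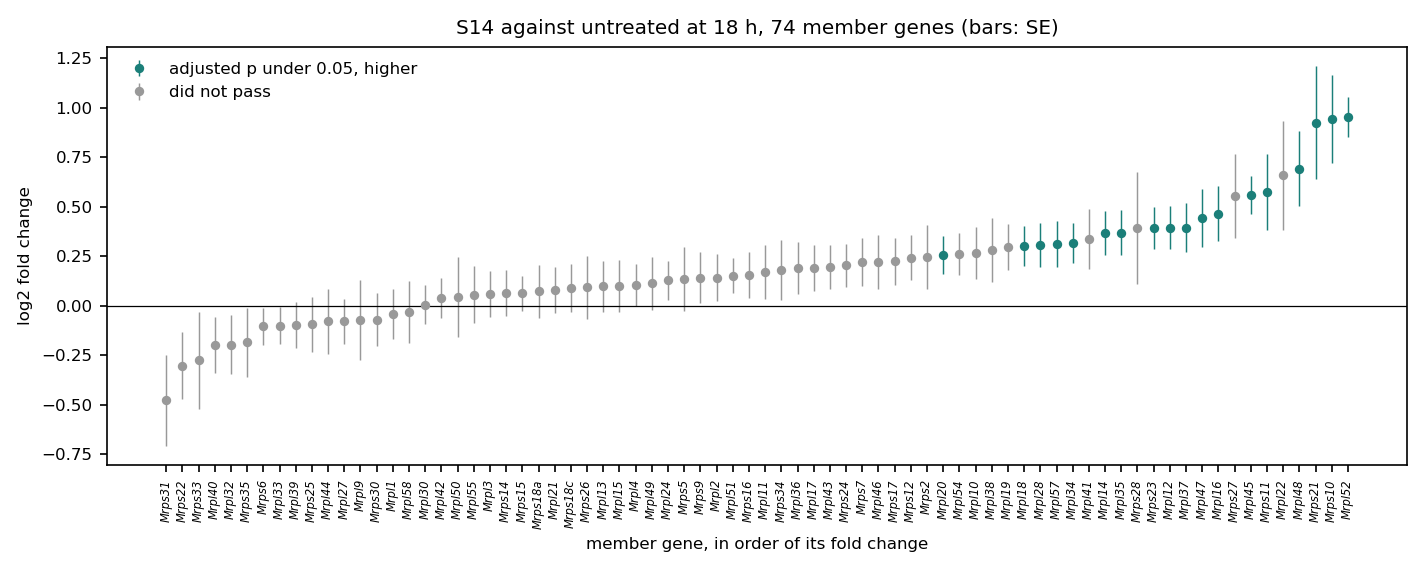
Log2 fold change (vertical axis, bars SE) of 74 member genes, in order, for S14 against untreated cells at 18 h on the TMM scale. The 18 coloured genes passed the test and all lie above 0; with spike-in scaling 0 were higher and 43 lower.

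With LPS at 18 h more members were higher than lower on the TMM scale, which spike-in scaling turned around, while the largest single change was a fall. Of 74, 17 were higher and 9 lower, against 27.3% and 28.3% of all genes, and the medians were 0.10 over members and -0.04 over all genes. In either direction 35.1% of members and 55.6% of all genes were called. With spike-in scaling 1 was higher and 17 lower, or 3 and 4 without untreated replicate 4. In these LPS libraries the fibroblast markers summed to 8.96 to 15.3 CPM of the raw library total, against 0 to 1.73 in untreated cells. Nearly all of it was Dcn, and its part in the results was not tested. On the TMM scale without untreated replicate 4, 18 were higher and 7 lower. The 2 subunits differed in their counts: 13 of 49 large subunit members were higher and 5 lower (median 0.17), and 4 of 25 small subunit members were higher and 4 lower (median -0.05). Without untreated replicate 4 the counts were 15 higher and 3 lower for the large and 3 higher and 4 lower for the small subunit. The difference between these counts was not tested. The calls of Mrpl44, Mrpl50 and Mrps7 were lost without that library. Mrps6 fell from 125, 117, 124 and 116 CPM in untreated cells to 39.8, 33.0, 48.3 and 43.9 with LPS, 2.91 times lower (log2 -1.54 ± 0.10, adjusted p = 4.9e-17). The groups lay far apart, and the fall held with spike-in scaling (-2.18, adjusted p = 2.7e-07). Mrpl33, counterpart of the small bacterial protein L33, fell from 117, 132, 127 and 102 to 77.8, 73.7, 82.8 and 83.4 CPM without overlap (log2 -0.59 ± 0.10, adjusted p = 1.2e-06). Mrps25, a small subunit protein specific to mitochondria, had 43.5, 61.5, 41.8 and 32.9 CPM and 24.1, 28.9, 30.7 and 37.1 CPM (log2 -0.57 ± 0.14, adjusted p = 0.00087), and untreated replicate 4 lay within the range of the LPS libraries. Mrps15, Mrps35, Mrpl50, Mrpl44, Mrpl42 and Mrpl15 were lower too, from -0.49 to -0.33.

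Mrpl52 was again the member that rose most with LPS at 18 h, to 154, 148, 178 and 198 CPM (log2 1.37 ± 0.10, adjusted p = 2.8e-15), and it kept its call with spike-in scaling (0.81, adjusted p = 0.034). Mrpl45 had 153, 139.9, 147 and 148 CPM with LPS at 18 h (log2 0.98 ± 0.10, adjusted p = 7.8e-12), above every other library of the study, whereas at 3 h LPS left it at 90.3, 89.7, 71.9 and 81.8 against 90.9, 88.5, 85.4 and 91.2 CPM (log2 -0.09 ± 0.10, adjusted p = 0.43). Mrps10 had 18.0, 13.3, 14.3 and 11.6 CPM with LPS (log2 0.89 ± 0.22, adjusted p = 0.00081). Mrpl14, counterpart of a bacterial protein at the face between the subunits, rose from 70.1, 53.0, 61.1 and 45.3 to 111, 105, 100.0 and 91.7 CPM (log2 0.83 ± 0.11, adjusted p = 1.8e-08). Mrpl39, Mrps18c, Mrpl10, Mrpl47, Mrps16, Mrpl46, Mrpl18, Mrpl17, Mrpl13, Mrpl30, Mrpl57, Mrps7 and Mrpl20 were higher as well, from 0.61 down to 0.28.

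The LPS responses at the 2 times, which share no library, were weakly alike over the members. Across the 74 members, Pearson's r between the log2 fold changes was 0.263 and Spearman's rho 0.101, against an r of 0.446 across all 11717 genes; genes are not independent replicates, and this is a description. Mrpl52, Mrpl13, Mrpl39, Mrps18c, Mrpl30, Mrpl46 and Mrpl20 were higher at both times, and Mrps6, Mrpl50 and Mrpl42 lower at both. Mrps15 and Mrpl33 were higher at 3 h and lower at 18 h, and Mrpl18 was lower and then higher. For S14 the r was 0.148 across members and 0.267 across all genes. Pairs of unlike treatments, which share no library either, gave values on both sides of these. For S14 at 3 h and LPS at 18 h the r was 0.440 across members and 0.456 across all genes. For LPS at 3 h and S14 at 18 h it was -0.154 and 0.218. Of the 74 members, 23 (31.1%) were called in none of the 4 comparisons with untreated cells, against 21.6% of all genes tested.

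**Figure D4:**
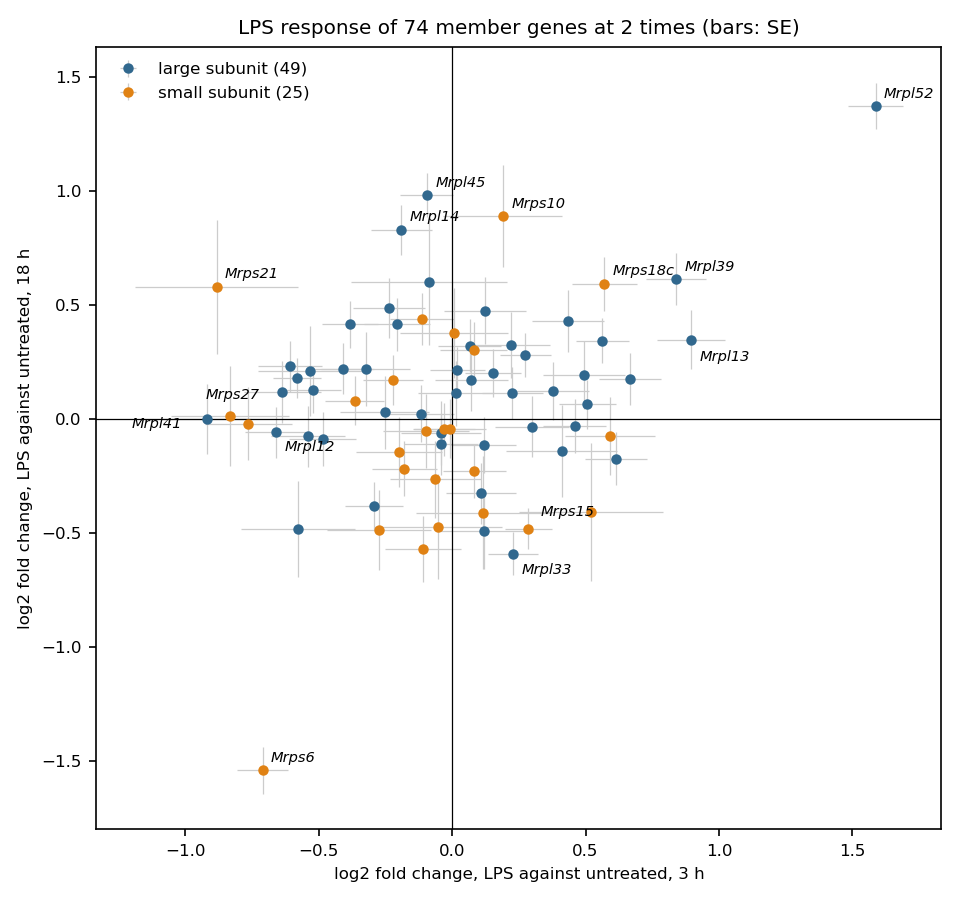
Log2 fold change of each of 74 members for LPS against untreated cells at 3 h (horizontal axis) and at 18 h (vertical axis), TMM scale, with SE bars, coloured by subunit. Mrpl52 lies at the upper right and Mrps6 at the lower left, and most members lie within 0.5 of 0 at 18 h (63 of 74).

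**Figure D5:**
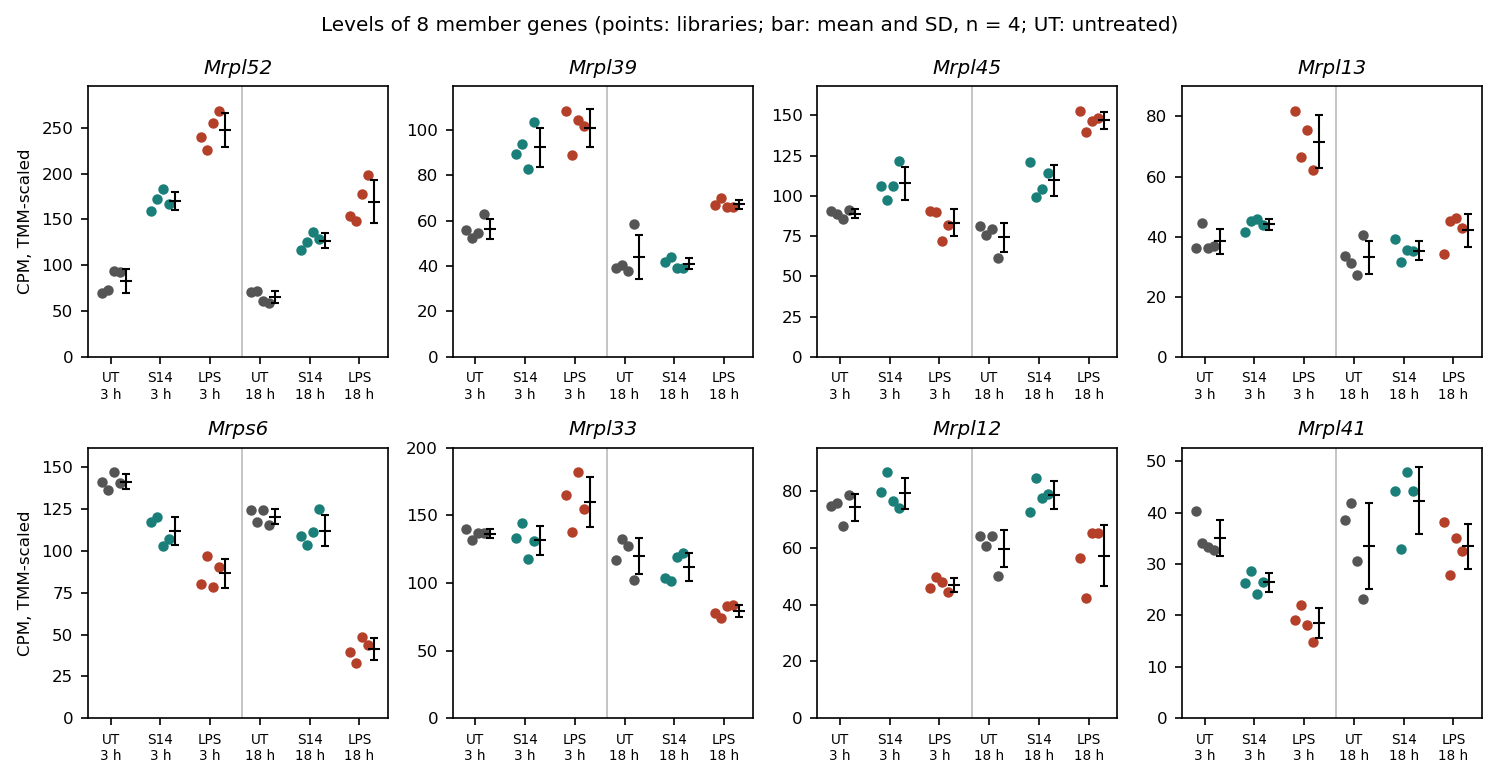
CPM (TMM-scaled, axes from 0) of 8 members in every library (points, 4 per group, with mean and SD). Mrpl52 is lowest in untreated cells and highest with LPS at 3 h, Mrpl39 is higher with S14 at 3 h only, among the 2 S14 groups, and Mrps6 is lowest with LPS at 18 h.

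Tests of the change of each response between 3 h and 18 h found 21 members whose LPS difference became more positive and 10 whose difference became more negative (all genes 25.1% and 26.1%, 51.2% in either direction). Mrps21 changed by 1.46 ± 0.42, adjusted p = 0.004, Mrpl45 by 1.08 ± 0.14, adjusted p = 1.1e-08 and Mrpl14 by 1.02 ± 0.16, adjusted p = 6.7e-07. In the other direction Mrps6 changed by -0.83 ± 0.14, adjusted p = 2.8e-06, Mrpl33 by -0.82 ± 0.13, adjusted p = 1.7e-06 and Mrpl3 by -0.79 ± 0.16, adjusted p = 9.0e-05. For S14 the test found 5 and 1 members (all genes 7.61% and 8.98%, 16.6% in either direction). Mrpl39 lost its early rise (-0.81 ± 0.16, adjusted p = 0.00031), while Mrpl41, Mrpl34 and Mrps23 changed upward (0.74, 0.60 and 0.53, adjusted p = 0.013, 0.0026 and 0.011). With DESeq2 size factors the S14 counts were 4 and 2. Without untreated replicate 4 of 18 h they were 5 and 1 for S14 and 21 and 12 for LPS. With spike-in scaling the counts were 0 and 25 for LPS and 0 and 19 for S14, so the upward calls rest on the TMM scale.

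Untreated cells had lower levels of many members at 18 h than at 3 h on the TMM scale: 23 were lower and 3 higher, against 19.6% and 19.2% of all genes (38.8% in either direction), with medians of -0.18 over members and -0.01 over all genes. Without untreated replicate 4 of 18 h the counts were 18 lower and 3 higher, and with spike-in scaling 0 lower and 23 higher, or 0 and 3 without that library. Fitting only these 2 groups gave 12 lower and 3 higher. Mrpl48, a large subunit protein specific to mitochondria, fell from 16.0, 18.5, 15.8 and 17.9 to 8.90, 8.06, 10.5 and 8.75 CPM (log2 -0.91 ± 0.19, adjusted p = 0.00016). Its reads came to 1478 in the count table and 2298 in the normalised table, so part of them depends on how reads were assigned. Mrps27 fell from 12.2, 18.9, 16.7 and 13.5 to 10.1, 7.59, 10.5 and 7.18 CPM (log2 -0.80 ± 0.21, adjusted p = 0.0022). Mrps21 was lower as well (log2 -0.83 ± 0.29, adjusted p = 0.022), a call lost without replicate 4 of 18 h (-0.52, adjusted p = 0.083) or replicate 1 of 3 h (-0.78, adjusted p = 0.056). The 3 that rose were Mrpl44, which has a fold like that of the RNA-cutting enzyme RNase III, Mrps35 and Mrpl1. Mrpl44 went from 15.5, 19.6, 19.8 and 20.7 to 24.6, 22.9, 31.0 and 39.0 CPM (log2 0.64 ± 0.17, adjusted p = 0.0028). Mrps35, a small subunit protein specific to mitochondria, went from 17.2, 15.5, 14.1 and 10.2 to 23.4, 18.0, 22.1 and 24.2 CPM (log2 0.61 ± 0.18, adjusted p = 0.0054), and Mrpl1, counterpart of a bacterial stalk protein, from 21.4, 24.996, 24.2 and 19.2 to 30.4, 28.1, 32.2 and 32.6 (log2 0.45 ± 0.13, adjusted p = 0.0056). Since the untreated level moved with time, the later comparisons with untreated cells have another base than the early ones.

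The 2 stimuli were also compared with each other. At 3 h, 19 members were higher with S14 than with LPS and 11 lower, against 23.7% and 22.4% of all genes (46.1% in either direction). Mrps21 (14.5, 20.5, 9.91 and 15.6 CPM with S14, 4.60, 9.47, 6.07 and 9.35 with LPS) had the largest difference (log2 1.03 ± 0.30, adjusted p = 0.0048). Mrpl12 had 79.6, 86.6, 76.3 and 74.1 CPM with S14, all above the LPS libraries (log2 0.75 ± 0.12, adjusted p = 5.2e-07), and Mrps27 was higher too (log2 0.63 ± 0.22, adjusted p = 0.017), a call lost without LPS replicate 1 (0.49, adjusted p = 0.084). On the other side stood Mrpl13 (log2 -0.70 ± 0.13, adjusted p = 9.9e-06), Mrpl52 (log2 -0.54 ± 0.10, adjusted p = 1.3e-05) and Mrps22, a small subunit protein specific to mitochondria (log2 -0.47 ± 0.17, adjusted p = 0.018). The Mrps22 call was lost without S14 replicate 2 (-0.43, adjusted p = 0.051) or replicate 3 (-0.39, adjusted p = 0.077).

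At 18 h, 19 members were higher with S14 than with LPS and 8 lower (all genes 21.3% and 21.3%, 42.6% in either direction). By subunit the counts were 10 higher and 2 lower of 25 for the small and 9 higher and 6 lower of 49 for the large subunit, or 11 higher and 2 lower and 11 higher and 6 lower without untreated replicate 4, which enters the estimate of the spread. Mrps6 was 2.71-fold higher with S14 (log2 1.44 ± 0.10, adjusted p = 1.4e-15), at 109, 104, 111 and 125 CPM, and S14 against untreated cells gave -0.10 ± 0.09, adjusted p = 0.47. Mrps28 had 20.1, 13.2, 15.7 and 12.3 CPM with S14 and 5.62, 6.29, 9.62 and 13.5 with LPS (log2 0.80 ± 0.30, adjusted p = 0.033). Its ranges overlapped, and the call was lost when any 1 of 5 libraries was left out (LPS replicates 1, 2 and 3, S14 replicates 1 and 3), with adjusted p from 0.0504 to 0.12. Mrps15, the member with the most reads, had 159.7, 162, 158 and 161 CPM with S14 and 111, 91.4, 113 and 124 with LPS, without overlap (log2 0.54 ± 0.09, adjusted p = 2.4e-06). Lower with S14 were Mrpl39 (log2 -0.71 ± 0.12, adjusted p = 2.7e-06), Mrps18c (log2 -0.51 ± 0.12, adjusted p = 0.00059) and Mrpl14 (log2 -0.46 ± 0.11, adjusted p = 0.00056). With spike-in scaling the counts of S14 against LPS were 1 higher and 1 lower at 18 h, and 0 and 1 at 3 h. Without untreated replicate 4 of 18 h as well, they were 1 higher and 10 lower at 18 h, and 1 and 7 at 3 h. The lean toward higher with S14 thus rests on the TMM scale and turned around in that fit.

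Several members with a known function were followed whatever their change. Mrpl12 was lower with LPS at 3 h but not called at 18 h, where it had 64.1, 60.5, 64.0 and 50.1 CPM in untreated cells and 56.4, 42.3, 65.1 and 65.1 with LPS (log2 -0.06 ± 0.11, adjusted p = 0.68), and the change between the times passed the test (0.60 ± 0.16, adjusted p = 0.0018), with the sign turned under spike-in scaling (-0.30, adjusted p = 0.62). Mrps12, which sits at the decoding centre, did not pass in any of the 4 comparisons with untreated cells, at 66.8, 50.4, 64.2 and 46.9 CPM in untreated cells and 65.2, 74.3, 60.5 and 70.1 with S14 at 18 h. Its largest difference among them was 0.24 ± 0.11, adjusted p = 0.12 for S14 at 18 h. Mrpl58, a hydrolase that frees peptides from stalled ribosomes, had 27.5, 29.0, 26.8 and 34.2 CPM in untreated cells at 3 h and did not pass in any comparison. Its fold changes against untreated cells lay between -0.25 and 0.03. Mrps18a, Mrps18b and Mrps18c are paralogs related to bacterial S18. Mrps18c, the small subunit protein at the place of bacterial S18, rose with LPS from 58.2, 63.3, 58.3 and 60.5 to 91.1, 99.4, 94.7 and 71.7 CPM at 3 h (log2 0.57 ± 0.12, adjusted p = 0.0001) and from 54.8, 65.0, 44.2 and 69.8 to 86.2, 97.6, 78.8 and 89.7 at 18 h (log2 0.59 ± 0.12, adjusted p = 4.3e-05). At 18 h the spike-in scaling turned its sign (-0.14, adjusted p = 0.76), which it did not do without untreated replicate 4 (0.57, adjusted p = 0.078). Mrps18a, which lies in the large subunit, passed in no comparison, with fold changes against untreated cells from -0.11 to 0.14. Mrps18b had at most 1.54 CPM in any library. Whether these paralogs differ from each other in response was not tested.

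Mrps6 shares 159 exon bases on the same strand with Slc5a3, the gene of a myo-inositol transporter, outside the last 500 bases of Mrps6. Slc5a3 is named for this overlap. It had 54.6 to 67.7 CPM in untreated cells at 18 h and 4.15 to 8.50 with LPS (log2 -3.52 ± 0.17, adjusted p = 1.8e-21), and with S14 at 3 h its difference was -1.18 (adjusted p = 4.6e-09). Both genes were also lower with LPS at 3 h (Slc5a3 -2.47, adjusted p = 5.5e-18). With S14 at 18 h they parted: Slc5a3 was lower (-0.80, adjusted p = 1.0e-05), while Mrps6 did not pass (-0.10, adjusted p = 0.47). How far reads of 1 gene were counted for the other was not tested. In all, 10 members share exon bases with another gene within the last 500 genomic bases of the annotated member gene, 6 of them with a gene that had 10 or more reads. Mrps25 shares its whole last 500 bases with Nr2c2, which had 4780 reads against 4958 for Mrps25. No source used here gives the strand setting of the counting, so reads of such pairs cannot be told apart.

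Many members start next to another gene. An opposite-strand start of a protein-coding gene lay within 1000 bases of the start of 33 of 77 members (42.9%), against 17.8% of the 10532 protein-coding genes tested. In the pair formed by Mrpl46 and Mrps11, both partners are members, 1 of each subunit. Mrpl46 rose with LPS at 3 h (log2 0.43 ± 0.14, adjusted p = 0.0062) and at 18 h (log2 0.43 ± 0.14, adjusted p = 0.0068), while Mrps11 had 0.01 ± 0.20, adjusted p = 0.98 and 0.38 ± 0.20, adjusted p = 0.10. Mrps12 starts 172 bases from Sars2, which encodes the serine synthetase for mitochondrial tRNA, and Mrpl43 starts next to Twnk, the helicase of mitochondrial DNA.

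Other genes needed to make and use the mitochondrial ribosome were counted from textbook lists, on the TMM scale. The shares of all genes called higher and lower, to set beside each list, were 9.05% and 6.2% for S14 and 25.3% and 30.2% for LPS at 3 h, and 12.6% and 11.6% for S14 and 27.3% and 28.3% for LPS at 18 h. Of 27 genes for assembly of the ribosome and modification of its RNA, LPS at 3 h gave 2 higher and 8 lower (median -0.39), 37.0% in either direction against 55.5% of all genes. Mrm1, which methylates the large ribosomal RNA, was lowest (12.0 ± 2.14 CPM in untreated cells and 2.11 ± 0.992 with LPS, mean ± SD, n = 4; log2 -2.50 ± 0.29, adjusted p = 4.3e-10), and Trmt61b, another RNA methyltransferase, rose (log2 1.46 ± 0.26, adjusted p = 7.1e-06). At 18 h LPS gave 2 higher and 4 lower (22.2% against 55.6%), among the lower ones Noa1 (log2 -1.08 ± 0.24, adjusted p = 0.0002) and Rbfa (log2 -0.72 ± 0.11, adjusted p = 3.3e-07), both known for assembly of the small subunit. S14 gave 0 higher and 1 lower at 3 h and 1 higher and 0 lower at 18 h, where Mpv17l2, a factor of the large subunit, rose (log2 0.63 ± 0.12, adjusted p = 0.00012). Of 13 translation factors, LPS gave 1 higher and 4 lower at 3 h (38.5% in either direction) and 1 higher and 3 lower at 18 h (30.8%). Tufm, which brings tRNAs to the ribosome, was lower with LPS at 3 h (log2 -0.75 ± 0.25, adjusted p = 0.011), a call lost without LPS replicate 3 (-0.52, adjusted p = 0.081), and higher at 18 h with LPS (log2 0.82 ± 0.25, adjusted p = 0.0049) and with S14 (log2 0.84 ± 0.25, adjusted p = 0.009). Guf1, a factor that acts on stalled ribosomes, was lower with LPS at 18 h (log2 -1.55 ± 0.23, adjusted p = 1.5e-07). With spike-in scaling the assembly list had 1 higher and 1 lower for LPS at 3 h, 0 higher and 8 lower for LPS at 18 h and 0 higher and 17 lower for S14 at 18 h, where the difference of Mpv17l2 turned to -0.46 and that of Tufm to -0.06. The LPS calls of Tufm were lost with spike-in scaling too (-0.45, adjusted p = 0.44 at 3 h and 0.27, adjusted p = 0.60 at 18 h).

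Of 17 mitochondrial aminoacyl-tRNA synthetases, which charge tRNAs, LPS gave 0 higher and 6 lower at 3 h (35.3% in either direction, against 55.5% of all genes) and 1 higher and 6 lower at 18 h (41.2% against 55.6%), or 1 higher and 3 lower at 18 h without untreated replicate 4. S14 gave 0 higher and 2 lower at 3 h and 1 higher and 0 lower at 18 h. The shares lower with LPS, 35.3% at each time, lay near those of all genes. Aars2 was lower with S14 at 3 h (log2 -0.94 ± 0.28, adjusted p = 0.016), a call lost without S14 replicate 1 or 3 or untreated replicate 4 (adjusted p up to 0.074), and with LPS at 3 h (log2 -1.43 ± 0.30, adjusted p = 8.5e-05). Of 13 genes for transcription and RNA maturation in mitochondria, LPS gave 4 higher and 2 lower at 3 h and 3 higher and 3 lower at 18 h (46.2% in either direction at each time). Pnpt1, an RNA-degrading enzyme of mitochondria, rose with LPS at 3 h from 17.8 ± 2.69 to 76.4 ± 8.88 CPM (log2 2.10 ± 0.16, adjusted p = 5.0e-15), as did Tefm, an elongation factor of mitochondrial transcription (log2 2.04 ± 0.32, adjusted p = 8.4e-07). At 18 h Slirp, which stabilises mitochondrial mRNAs (log2 1.02 ± 0.09, adjusted p = 1.8e-12), and Hsd17b10, a subunit of the mitochondrial RNase P (log2 0.97 ± 0.11, adjusted p = 2.3e-10), were higher with LPS. Of 10 tested regulators, LPS gave 4 higher and 5 lower at 3 h, where 55.5% of all genes were called, with Max, the partner of Myc (log2 2.02 ± 0.09, adjusted p = 1.2e-23), and Ppargc1b, a coactivator of nuclear genes for mitochondria (log2 2.72 ± 0.34, adjusted p = 5.1e-09), highest. Max was higher with S14 at 3 h as well (log2 0.42 ± 0.09, adjusted p = 0.00033), a call lost with spike-in scaling (0.53, adjusted p = 0.81, and adjusted p = 0.20 without untreated replicate 4 of 18 h). With spike-in scaling the synthetases had 0 higher and 2 lower for LPS at 3 h and 0 higher and 11 lower at 18 h, the transcription list 3 higher and 0 lower and 0 higher and 5 lower, and the regulators 4 higher and 1 lower at 3 h. Under that scaling Aars2 lost its S14 call (-0.81, adjusted p = 0.61), and Slirp (0.31, adjusted p = 0.46) and Hsd17b10 (0.35, adjusted p = 0.35) lost their LPS calls at 18 h, which both kept when untreated replicate 4 was left out as well.

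Of the other genes of ribosomes and the respiratory chain, those of the cytosolic ribosome and of mitochondrial DNA had other counts than the members with LPS at 18 h. The nuclear genes of the respiratory chain leaned the same way as the members. With LPS at 18 h, 53 of 77 tested genes of the cytosolic ribosome were lower and 1 higher (median -0.71), and of 8 tested mRNAs of mitochondrial DNA 6 were lower and 1 higher (median -0.81), where the member median was 0.10; with spike-in scaling the cytosolic genes were 1 higher and 64 lower, and without untreated replicate 4 on the TMM scale 1 higher and 62 lower. Of all genes 28.3% were lower. mt-Nd1, a subunit of complex I, had 3260.3 ± 398 CPM in untreated cells and 1422 ± 324 with LPS (log2 -1.20 ± 0.12, adjusted p = 4.1e-09). The nuclear genes of respiratory chain subunits were 34 higher and 11 lower of 81 with LPS at 18 h and 47 higher and 1 lower with S14 at 18 h, where 12.6% of all genes were higher. In untreated cells at 18 h against 3 h they were 7 higher and 44 lower, where 19.6% of all genes were lower. In the same 3 comparisons the members were 17 higher and 9 lower, 18 higher and 0 lower and 3 higher and 23 lower. Without untreated replicate 4 the respiratory chain counts were 33 higher and 7 lower, 47 higher and 0 lower and 4 higher and 43 lower. With spike-in scaling these directions turned: 1 higher and 18 lower with LPS at 18 h, 1 higher and 36 lower with S14 at 18 h and 26 higher and 1 lower in untreated cells over time. Another 5 subunits of the mitochondrial ribosome carry other names, and of these Ptcd3 was lower with LPS at 18 h (log2 -1.29 ± 0.29, adjusted p = 0.00021) and with S14 at 18 h (log2 -0.87 ± 0.28, adjusted p = 0.017), the latter call lost without untreated replicate 4 (-0.52, adjusted p = 0.15) or S14 replicate 1 or 3. Gadd45gip1 was higher with S14 at 18 h (log2 0.56 ± 0.13, adjusted p = 0.001), with the sign turned under spike-in scaling (-0.32). None of these differences between lists was tested.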

How the data were processed

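3' mRNA sequencing of mouse bone marrow-derived macrophages gave 24 libraries in 6 groups of 4. The authors deposited whole read counts per gene, not normalized, and a second table of normalised counts, a signal in which reads per gene are divided by 1 size factor per library. The second table also holds 114 spike-in RNAs, 62 of them with reads; multiplied by the factor, 100% of its values came out whole within 0.01, and the same test on these reads called 5, 33, 19 and 27 members for S14 and LPS at 3 h and S14 and LPS at 18 h. The submitters' processing notes name the GRCm38 build, STAR 2.6.1a, featureCounts 1.6.4 (Subread), cutadapt 1.18, DESeq2 and FastQC. No source used here gives the strand setting or the annotation release. The tables differ in reads for 52 of the 77 members, by over 10% for 5 (Mrpl23, Mrpl48, Mrps18c, Mrps36 and Mrps5). All columns of values were mapped to samples. The count table's columns call the controls Veh and the labels call them untreated.

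Counts were fitted with edgeR 4.0.16 (R 4.3.3): filterByExpr by group (minimum count 10, minimum total 15), TMM scaling, 1 mean per group fitted to all 24 libraries (robust, 18 residual degrees of freedom) and quasi-likelihood F tests. Benjamini-Hochberg adjustment covered all 11717 genes tested, and calls needed an adjusted p under 0.05. Every adjusted p in the text comes from this test or, where stated, from the same test under another scaling or with a library left out. SE was obtained from the log2 fold change and F. Levels are CPM of the TMM-scaled library, except those of the cell type markers, which are CPM of the raw library total. Comparisons share their control libraries within a time point. For each comparison, the 3 highest and 3 lowest called members at 10 CPM or more were given in full, together with Mrpl12, Mrps12, Mrpl58 and Mrps18a to Mrps18c, and the 2 largest called changes per side list were eligible to be named. Other members given with values were chosen after their values were seen. The members and lists were chosen with earlier results of these data known. Alternatives were DESeq2 1.42.0, its size factors in edgeR, spike-in scaling, no filter, a fit of only the groups compared, the second table's reads, a replicate block and each library left out in turn. The fit was tested on simulated counts. Depth was 3334182 to 6350251 reads per library.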

Additional observations from a re-analysis of the deposited data

Results flagged for a closer look

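In 8 of 156 groups of 4 libraries examined for single members, 1 library lay far from the other 3 (Dixon's test at 95%, which chance passes in about 1 in 20 groups). Mrpl13 had 44.6 CPM in untreated replicate 2 at 3 h, above 36.1 to 36.8 in the others, and Mrpl39 had 58.6 CPM in untreated replicate 4 at 18 h, above 37.6 to 40.5. Mrpl48 had 14.7 CPM in S14 replicate 4 at 3 h, below 18.1 to 18.8, and 15.3 CPM in LPS replicate 4 at 3 h, above 10.0 to 10.9. Mrpl58 had 23.0 CPM in S14 replicate 1 at 3 h, below 31.0 to 32.5, and 24.0 CPM in untreated replicate 1 at 18 h, below 28.3 to 28.4. Mrps18b had 1.54 CPM in untreated replicate 3 at 18 h, where the others had at most 0.175, and Mrps27 had 5.95 CPM in LPS replicate 1 at 3 h, below 9.22 to 9.87.

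The response differed between 3 h and 18 h, by edgeR's test of the change itself at an adjusted p under 0.05, for 6 members with S14 and for 31 members with LPS. Named members for S14 were Mrpl41 (0.74, log2), Mrpl34 (0.60), Mrps23 (0.53) and Mrpl39 (-0.81). For LPS they were Mrps21 (1.46), Mrpl45 (1.08), Mrpl14 (1.02), Mrps6 (-0.83), Mrpl33 (-0.82) and Mrpl3 (-0.79). Both untreated groups enter these tests, so replicate 4 of untreated cells at 18 h bears on each of them. Without it the counts were 6 and 33.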

How the results depend on the processing

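Counts of called members are given in the order S14 then LPS at 3 h, S14 then LPS at 18 h, S14 against LPS at 3 h and 18 h, untreated over time, and the change of the S14 and LPS responses. They were 5, 34, 18, 26, 30, 27, 26, 6 and 31. Scaling to spike-in reads gave 1, 9, 43, 18, 1, 2, 23, 19 and 25, and the same without untreated replicate 4 of 18 h gave 2, 20, 1, 7, 8, 11, 3, 2 and 14. Leaving out each library in turn gave 4 to 7, 31 to 35, 12 to 20, 23 to 29, 26 to 34, 19 to 30, 18 to 27, 4 to 7 and 28 to 33. Fitting only the groups compared gave 11 for S14 and 38 (20 higher, 18 lower) for LPS at 3 h, 9 for S14 at 18 h and 15 for untreated over time. DESeq2 size factors gave 35 for LPS at 3 h (18 higher, 17 lower) and the DESeq2 test gave 36 (18 higher, 18 lower). All other alternatives kept these counts within 1.5 times. Of the members called on the TMM scale, spike-in scaling kept the direction of 3 of 18 for S14 at 18 h and 13 of 26 for LPS at 18 h. In untreated cells over time it kept that of 7 of 26. Without untreated replicate 4 as well, these were 6, 26 and 18. Examples of log2 changes whose sign turned with spike-in scaling were Mrpl12 (-0.54, and -0.16 without replicate 4), Mrps18a (-1.03) and Mrps18c (-0.99) for S14 at 18 h, Mrps18c for LPS at 18 h (-0.14), and Mrps12 for S14 against LPS at 18 h (-0.053 and -0.049). In untreated cells over time they were Mrpl12 (0.47 and 0.10), Mrps12 (0.74) and Mrps18c (0.89). In the changes of response they were Mrpl34 (-0.58), Mrpl41 (-0.19), Mrps23 (-0.56 and -0.071) for S14 and Mrpl12 (-0.30) for LPS. The spike-in reads set these shifts by construction, and with few spike-in reads per library their cause was not tested. Deviations of same-numbered replicates correlated weakly (-0.03 to 0.14). In more cases than not, the library with the highest correlation among the 4 of the other group was the same-numbered one. These cases share libraries with each other. Whether same-numbered libraries share a mouse was not tested. The fit with the replicate block gave 6, 34, 19, 26, 30, 28, 26, 6 and 31.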

Other observations

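Members can also be divided by descent, into counterparts of bacterial ribosomal proteins and proteins specific to mitochondria. With LPS at 3 h, on the TMM scale, the counts were 10 higher and 6 lower of 28 for bacterial-type large subunit members (median 0.11), 3 higher and 7 lower of 21 for mitochondria-specific large subunit members (-0.09), 2 higher and 2 lower of 16 for bacterial-type small subunit members (-0.02) and 1 higher and 3 lower of 9 for mitochondria-specific small subunit members (-0.20). With LPS at 18 h the same classes had 7 higher and 2 lower of 28, 6 higher and 3 lower of 21, 4 higher and 2 lower of 16 and 0 higher and 2 lower of 9. Without untreated replicate 4 they had 9 higher and 2 lower, 6 higher and 1 lower, 3 higher and 2 lower and 0 higher and 2 lower. Of all genes, 25.3% were higher and 30.2% lower at 3 h and 27.3% and 28.3% at 18 h, and several of these counts lie near those shares. These differences between classes were not tested, and with spike-in scaling all calls of LPS at 3 h were higher (9 members) and most of LPS at 18 h were lower (17 of 18).

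Genes of like level, the 6846 other genes with a mean between 9.73 and 145 CPM, were called higher in 29.4% and lower in 29.6% with LPS at 18 h, where 23.0% and 12.2% of members were. With S14 at 18 h the shares were 12.6% and 13.1% for genes of like level, and 24.3% and 0% for members. These shares are all from the TMM scale. For S14 at 18 h, fitting only the groups compared gave 9 members higher and 0 lower, and spike-in scaling gave 0 higher and 43 lower. Shares of the genes of like level were not taken in those fits.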
